A study of Mus musculus with 4 samples.

Results

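The proteasome and the enzymes that attach and remove ubiquitin were followed over 4 array samples of mouse dentate gyrus, the granule cell field of the hippocampus. Members were all probe sets whose annotation gave 1 gene symbol with a prefix of proteasome genes (Psma to Psmg with a digit) or of ubiquitin enzymes (such as Uba, Ube, Uch, or Usp with a digit). The rule itself uses no measured value. It gave 141 of the 12488 probe sets on the array, for 106 genes. All 4 samples came from young male C57BL/6J mice that an experimenter handled and that received nothing else, and the labels name no transgene, deletion or drug. They were taken at 1, 2, 4 and 6 h, counted from the last shock given to other mice whose samples were not analysed here, with 1 sample at each hour. The labels do not give the number of mice in a sample, so the spread between samples can hold both mouse and array differences. Dentate tissue holds several cell types, and in such bulk samples a lower value cannot be told apart as fewer cells of a type or less RNA per cell.

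Ubiquitin is joined to proteins by a relay of 3 enzyme classes. An E1 enzyme activates ubiquitin, an E2 enzyme carries it and an E3 ligase chooses the substrate, while deubiquitinases take it off again. Chains of ubiquitin send proteins to the 26S proteasome, a 20S barrel of alpha and beta rings that holds the proteolytic sites, capped by a 19S particle with 6 ATPases and a lid of non-ATPase subunits. In neurons this system turns over synaptic proteins and is known for its part in synaptic plasticity and memory.

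Values are array intensities on a linear scale, in arbitrary units, and lists of 4 values run in the order 1, 2, 4 and 6 h. A level is comparable between samples for 1 probe set and not between probe sets. Each gene was read from its brightest probe set, and a gene was tested where its mean log2 intensity reached 7.41, equal to an intensity of 170.4. This held for 86 of the 106 member genes and for 4951 of the 8251 genes of the whole array. The 20 member genes under that level are described separately, so no count over the 86 covers all members.

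Medians over all probe sets were 185.6, 187.3, 212.8 and 184.8, so the 4 h array stood above the others, which lay close together. Markers of the labelled tissue were present: 6 of 7 dentate granule cell genes with a probe set passed the filter, among them Calb1 and Prox1, and Trpc6 did not. Markers of glia passed too, with 12 of 12 astrocyte, 7 of 8 oligodendrocyte and 8 of 12 microglia genes, so the RNA came from neurons and glia together. Summed intensities of the markers ran from 38716 to 42761 for granule cells, from 115375 to 125830 for astrocytes, from 16163 to 17331 for oligodendrocytes and from 8843 to 9604 for microglia. They ran from 24937 to 27724 for interneurons, from 7191 to 9219.6 for CA field and mossy cells, from 2533 to 3497 for endothelial and mural cells and from 2677 to 4462 for blood cells, the last highest at 1 h and lowest at 2 h. Such sums can rest on 1 bright probe set. At 1 h Ncdn gave 35841 of the granule cell sum of 41261, and Hba-a1 gave 4208 of the blood cell sum of 4462. The choroid plexus list varied more: its 7 genes summed to 2191, 5012, 5984 and 3132, and its defining gene Ttr read 81.3, 234, 2408 and 191. Igf2, the other tested gene of the list, read 1849, 4402, 2955 and 2521 and was highest at 2 h. The tested genes of the list thus had no common high sample. Among the genes of the list under the filter, Folr1, Kl, Cldn2 and Slc4a5 were highest at 4 h, at 126, 204, 54.4 and 124. Aqp1, also under the filter, was highest at 2 h, at 139. The part of such tissue differences in the results on proteasome and ubiquitin genes was not tested.

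The members did not follow a course over the 4 hours that the trend test could call. In a linear fit of log2 intensity on the hour with limma, 0 of 86 member genes had an adjusted p under 0.05, as against 0 of 4951 genes in the background (0%). At an unadjusted p under 0.05 there were also 0 members, where the background held 100 genes (2.02%). Slopes were positive in 37 members and negative in 49, beside 49.9% positive and 50.1% negative slopes among all tested genes. Bright genes leaned to negative slopes. In the brightest of 4 equal classes by mean, 550 tested genes had positive and 688 negative slopes. Of the 34 members in that class, 12 had positive and 22 negative slopes. The smallest member p, 0.0791 before adjustment, belonged to Ube2e1, an E2 enzyme, whose intensities were 795, 569.9, 474 and 468 and whose slope was −0.14 ± 0.07 log2 per h (SE, n = 4, limma adjusted p = 0.99993). It was lower at every step as deposited, but lowest at 4 h after array median scaling and after quantile normalization, and it did not pass the test.

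Without regard to the order of the hours, 8 of the 86 members (9.3%) had a highest value more than 2-fold above the lowest, against 15% of all tested genes. The 4 h sample bore on this count most. Without it 2 members were above 2-fold, and 5 were without the 1 h or the 2 h sample. Over all tested genes, too, the 4 h array most often held the highest value (31.4%) and the lowest (29.2%). The share of all tested genes over 2-fold without it is not given here, so this drop is not shown to be particular to members. Wide spans were more frequent among dim genes. With all tested genes split by mean into 4 equal brightness classes, 37% of the dimmest class spanned over 2-fold, and 5 of the 12 members there did. In the brightest class the share was 2.83%, and 0 of the 34 members there did. The SD of log2 intensity over the 4 samples had a median of 0.22 over the members and 0.25 over all tested genes. Within the brightest class it was 0.16 for members and 0.18 for all genes. The 8 wide members were Usp15, Psmg1, Usp39, Usp22, Ube2d2a, Ube2k, Uba7 and Ube2v2. The nearest member under the threshold was Psme1 at 1.92-fold and the nearest above it Ube2v2 at 2.01-fold.

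**Figure D1:**
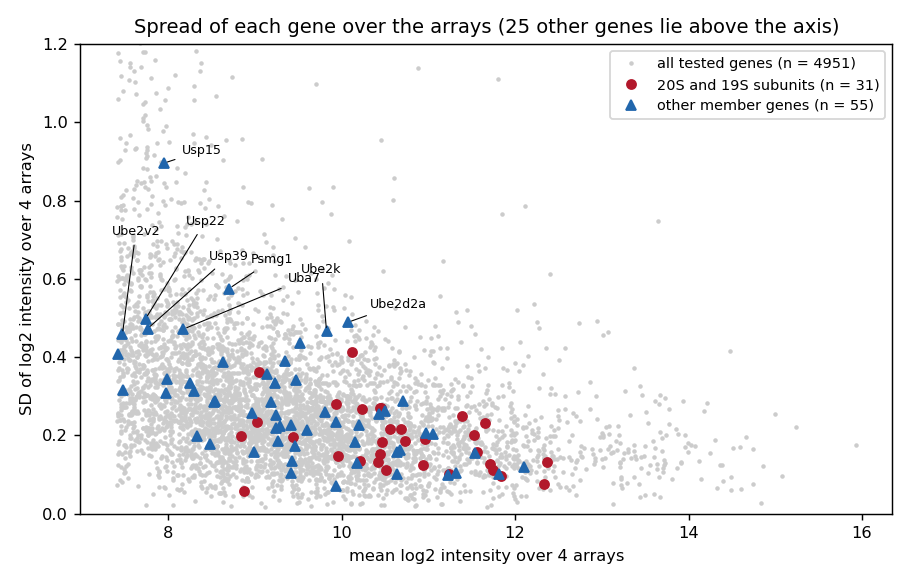
Each point is 1 tested gene, with its mean log2 intensity over the 4 arrays on the x axis and the SD of log2 intensity over the same arrays on the y axis; grey points are all 4951 tested genes, red circles the 31 subunits of the 20S and 19S particles, blue triangles the other 55 members, and the 8 members spanning over 2-fold are named. The spread falls with brightness, no red circle lies above the 0.41 of Psmd7, and Usp15 stands highest among members at 0.90.

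The 4 h sample held low values of the members more often than the other samples did. It gave the lowest of the 4 values in 36 of 86 members (41.9%), against 29.2% of all tested genes, and the highest in 15 members (17.4%), against 31.4%. At the other hours the counts lay closer to the background. The lowest value was at 1 h in 17 members, at 2 h in 14 and at 6 h in 19, where the shares of all tested genes were 24.5%, 23.2% and 23.1%. The highest was at 1 h in 25 members, at 2 h in 20 and at 6 h in 26, where the shares of all tested genes were 23.1%, 23.1% and 22.3%. The median member stood 0.09 log2 below its mean at the other hours at 4 h, where the median of all tested genes was 0.02 above. The 4 h array also differed from the others in the shape of its distribution: bright genes leaned low and dim genes high on it. In the brightest class 36.5% of tested genes were lowest at 4 h, and 18 of the 34 members in that class were (52.9%). In the dimmest class 38.5% of tested genes were highest at 4 h and 23.8% lowest, while 2 of the 12 members there were highest and 6 lowest at that hour. Dividing each array by its median moved all genes together, to a median of −0.17 log2 at 4 h, and the members to −0.28. In that scaling 55 members were lowest at 4 h, against 46.9% of all genes. With the arrays forced to the same distribution by quantile normalization, 36 members were lowest at 4 h, against 30.7% of all genes, and the medians were −0.05 for members and 0.01 for all genes. With 1 sample at 4 h there is no replicate against which to test the difference, and the choroid plexus gene Ttr was highest on the same array.

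**Figure D2:**
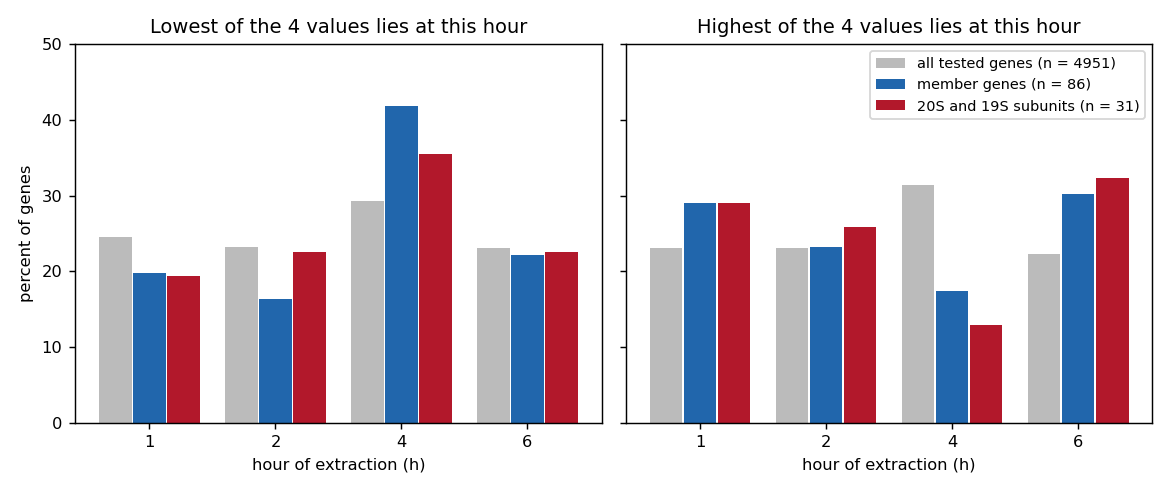
Bars give the percent of genes whose lowest (left) or highest (right) of 4 values lies at each hour of extraction, for all tested genes (grey, n = 4951), member genes (blue, n = 86) and subunits of the 20S and 19S particles (red, n = 31). At 4 h the lowest value is found in 41.9% of members against 29.2% of all genes, and the highest in 17.4% against 31.4%.

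Promoters are shown for genes that mark the ends of this range: Psmd12, the subunit with the least spread, Psme1, the activator with the most, and Usp15, the widest member of all. The sequences are from RefSeq on build GRCm38.p6 and run 5′ to 3′ from 250 bases before the annotated start to 30 bases after it, and 85 of the 106 member genes had an entry in that table. Capitals mark matches to the core of the interferon response element, CACGTG (the E-box of clock and Myc factors) or CCAAT, searched on both strands.
Psmd12 promoter, chr11:107479278-107479557, plus strand: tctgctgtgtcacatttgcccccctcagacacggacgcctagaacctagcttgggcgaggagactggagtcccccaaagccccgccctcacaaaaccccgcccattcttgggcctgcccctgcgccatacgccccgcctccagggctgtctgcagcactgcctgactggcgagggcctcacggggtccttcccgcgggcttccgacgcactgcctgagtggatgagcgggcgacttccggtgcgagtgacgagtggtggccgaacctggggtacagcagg
Psme1 promoter, chr14:55578244-55578523, plus strand: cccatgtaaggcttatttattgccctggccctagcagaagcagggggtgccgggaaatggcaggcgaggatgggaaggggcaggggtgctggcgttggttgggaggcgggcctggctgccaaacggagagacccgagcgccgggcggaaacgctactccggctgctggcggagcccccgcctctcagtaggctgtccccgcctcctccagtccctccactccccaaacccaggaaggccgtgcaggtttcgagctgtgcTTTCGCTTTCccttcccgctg
Usp15 promoter, chr10:123196990-123197269, minus strand: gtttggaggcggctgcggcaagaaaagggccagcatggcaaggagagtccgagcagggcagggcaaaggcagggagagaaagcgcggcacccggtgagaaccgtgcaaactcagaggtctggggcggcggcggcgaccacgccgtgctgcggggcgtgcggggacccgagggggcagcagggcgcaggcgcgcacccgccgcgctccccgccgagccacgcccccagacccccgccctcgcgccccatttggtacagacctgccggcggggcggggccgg
The Psme1 window held 1 match, the interferon-type TTTCGCTTTC just past the start, a core whose middle 2 bases were left free in the search, and the other windows held none. Over 300-base windows of the whole table the interferon-type core was found in 3.44% of promoters, CACGTG in 7.15% and CCAAT in 37.4%. Among the 95 promoters of those 85 member genes the shares were 6.32%, 11.6% and 30.5%. NFE2L1, an activator of proteasome genes, is known to bind antioxidant response elements. Their short core TGANNNNGC occurred in 51.6% of the member promoters and 41.3% of all promoters, and the longer letters TGACTCAGC in 1 of the 95 member promoters, that of Usp10, and in 0.454% of all promoters. The short core is not marked by capitals above. On either strand it began at −247 and −28 relative to the start in the Psmd12 window and at −146 in that of Usp15. These matches are letters in a window and were not tied to binding or to the values.

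All 14 genes of the alpha and beta rings passed the filter, and each stayed within 1.55-fold over the 4 samples, with a median SD of 0.20 in log2 units, near the 0.18 of all tested genes in the brightest class. As deposited, 5 of the 14 were lowest at 4 h, beside 29.2% of all tested genes and 36.5% of the brightest class, and 0 were highest there. The count lowest at 4 h was 11 after array median scaling and 6 after quantile normalization. Relative to the other hours, the median of all tested genes at 4 h was −0.17 log2 in the first scaling and 0.01 in the second. The count of 11 thus includes a shift of all genes together. In the alpha ring, which gates entry to the barrel, Psma4 read 2550.3, 2206, 2338 and 2549.5, a span of 1.16-fold and the smallest of the ring. Psma7 varied most, at 3925, 3158, 2653 and 3318, highest at 1 h and lowest at 4 h. The means were 2411 ± 169 (SD, n = 4) for Psma4 and 3264 ± 524 (SD, n = 4) for Psma7. Psma2 read 3012, 3450.1, 2636 and 3044. Psma6 read 3028, 3389.7, 2433 and 3051, so both were highest at 2 h and lowest at 4 h. Psma3 read 5304, 4936, 4976 and 6019. Psma1 read 483, 402, 415 and 541 and, like Psma3, was highest at 6 h and lowest at 2 h. Psma5 was the one alpha gene lowest at 1 h, with 1643, 2109, 2020.1 and 2230.1.

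In the beta ring, Psmb1 was nearly flat at 5084, 5132, 4870 and 5531, a span of 1.14-fold. The 3 genes for the proteolytic subunits did not all share a high sample. Psmb5, which encodes the chymotrypsin-like subunit, read 1822, 1174, 1303 and 1380 and was highest at 1 h. Psmb6, for the caspase-like subunit, read 1220.3, 1786, 1452 and 1189 and was highest at 2 h, with 1 and 6 h close together below it. Psmb7, for the trypsin-like subunit, read 1622, 1348, 1303 and 1297 and was the only core gene lower at every step as deposited. Its last 3 values differ by little, and the order was lost in both other scalings. Lower values at every step occurred in 4 of 86 members and in 2.4% of all tested genes, and of those 4, Usp8 alone kept them after both array median scaling and quantile normalization. The structural subunit gene Psmb2 read 1578, 2047, 1512 and 1482. Psmb3, another, read 2254, 3334, 2832 and 2444, and both were highest at 2 h. Psmb4 read 3487, 3492, 3095 and 3719. Dim Psmb4 probe sets under the filter read 34.1, 114, 229 and 54.9 and 10.7, 3.6, 90.5 and 6.4, both highest at 4 h. The maturation factor Pomp, which acts as beta subunits are fitted into the barrel, peaked at 2 h like Psmb2 and Psmb3, at 1688, 2992, 1932 and 1559.

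The 19S particle unfolds substrates and recognises ubiquitin chains. Of its 6 ATPase genes 5 passed the filter, and of 14 genes with Psmd symbols 12 did. No tested one spanned over 2-fold, beside 15% of all tested genes and 2.83% of the brightest class. Among the ATPases, Psmc5 was the widest and read 973, 829.6, 1293 and 891 (1.56-fold). A dim second probe set of Psmc5 read 11.8, 64.6, 162 and 88.4, and both were highest at 4 h. Psmc3 had the least spread on its brightest probe set, at 1341, 1406, 1603 and 1497 (1.2-fold), highest at 4 h as deposited and at 6 h after array median scaling. Its other probe sets read 369, 520.5, 398 and 504 and 443, 456, 377 and 512, highest at 2 h and at 6 h. Psmc6 read 3378, 3410.2, 2979 and 3694. Psmc2 read 1367, 1651, 1217 and 1439 and, like Psmc6, was lowest at 4 h. Psmc1 read 1345, 1076, 1192 and 1149, so the ATPase genes had no common high or low sample.

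Among the non-ATPase genes, Psmd12, a lid subunit, had the least spread of all 86 members: its intensities were 450.5, 456, 471 and 493, higher at every step by 1.09-fold in all, with an SD of 0.06 in log2 units. Higher values at every step occurred in 2 of 86 members, Psmd12 and Ubap2, and in 2.65% of all tested genes; for both the order was lost after array median scaling and after quantile normalization. Psmd7, a lid subunit, varied most, with 926, 1538, 1285 and 827; 2 and 4 h lay above 1 and 6 h, over a span of 1.86-fold. Psmd14, its partner in the lid and the enzyme that cuts ubiquitin off substrates as they enter, did not share that course, with 1468, 1328, 964 and 1127. Psmd1, the large scaffold of the base, read 3562, 3552, 3492 and 4035, with 6 h above the other 3 samples. The ubiquitin receptor Psmd4 read 1354, 1555, 1312 and 1256. Psmd5 and Psmd9 encode chaperones that assemble the base rather than subunits of the finished particle, and were counted by symbol among the 31 subunit genes. Psmd5 read 1823, 1456, 1523 and 1268, highest at 1 h and lowest at 6 h, and Psmd9 412, 444, 701 and 604, low at 1 and 2 h and high at 4 and 6 h. The other tested Psmd genes were Psmd3, Psmd6, Psmd8, Psmd11 and Psmd13, with spans from 1.22 to 1.42-fold.

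**Figure D3:**
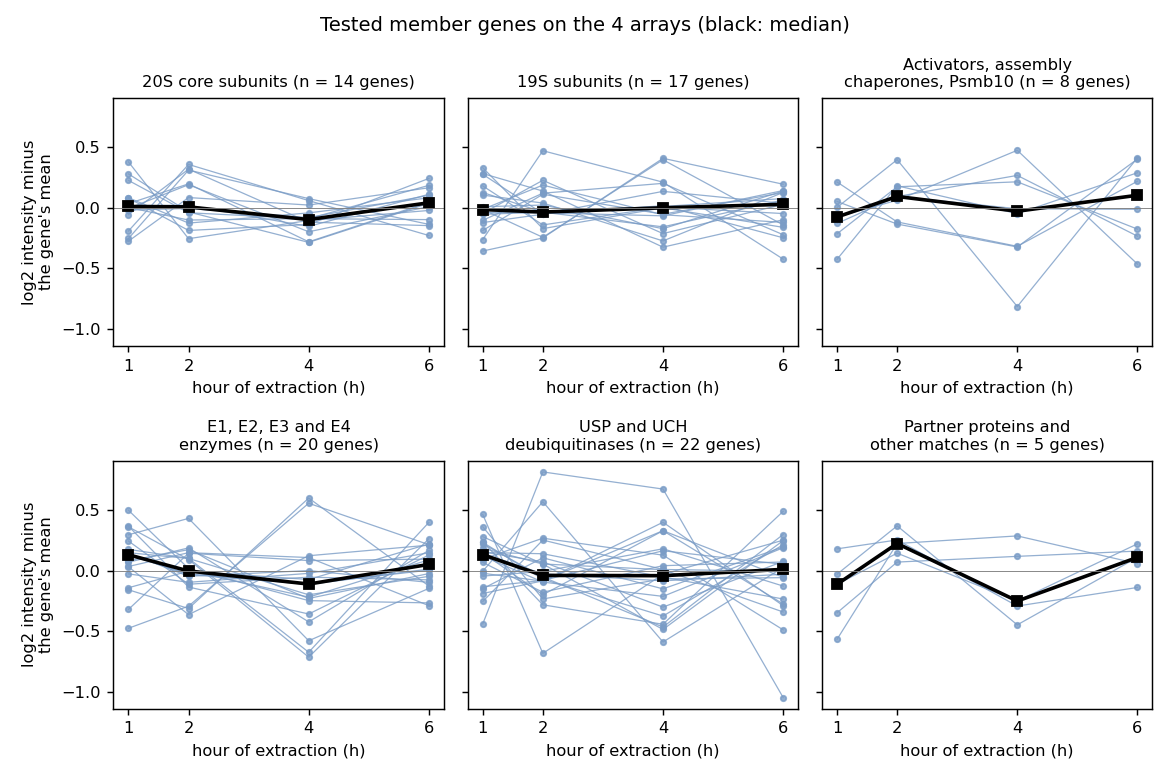
Each blue line is 1 tested member gene, drawn as log2 intensity minus the gene's own mean over the 4 arrays against the hour of extraction in h, with the median of each class in black. The 14 core and 17 19S genes stay in a narrower band than the E2 and USP genes, and among the widest excursions are the low values at 4 h of Psmg1 and of E2 enzymes and the low value of Usp15 at 6 h. The panels are not matched for brightness: 21 of the 31 subunit genes lie in the brightest class. Within that class the median SD was 0.16 for subunit genes and 0.16 for all members.

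Psmb10, which replaces Psmb7 in the immunoproteasome used for making MHC class I peptides, was among the flattest members, at 927, 1043, 972 and 969, a mean of 978 ± 48.3 (SD, n = 4) and a span of 1.13-fold. The genes for the other 2 inducible subunits lay below the filter. Psmb8 read 53.8, 152, 21.4 and 26 and Psmb9 14.5, 98.5, 36.3 and 27.5, each brightest at 2 h, and 5 of these 8 values lay under the floor of 38.3, the 20th percentile of all intensities on the arrays. Psme1, a subunit of the interferon-induced PA28 activator, read 376, 414, 550.5 and 287, highest at 4 h and lowest at 6 h over a 1.92-fold span. A second Psme1 probe set lay under the floor except at 4 h (13, 15.7, 60.8 and 18.5). Psme3, of the nuclear form of PA28, read 1681, 1338, 1163 and 1688. Psme4, the PA200 activator, read 262, 230.2, 202 and 334. Both were lowest at 4 h and highest at 6 h, the reverse of Psme1. In all, 6 probe sets carried a matching symbol among several and were left out, among them those of Psme2, Ube2l3 and Ube2j2.

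Genes of MHC class I presentation and the interferon response, a list of 27 with a probe set of which 11 were tested, varied more than Psmb10. No gene of the list passed the trend test, 8 of the 11 had positive slopes (beside 49.9% of all tested genes) and 4 spanned over 2-fold (beside 15%). B2m, the light chain of class I, read 778, 1215, 1442 and 1731 (2.22-fold). H2-K1, a class I heavy chain gene, read 797, 826, 1014 and 1058 on its brightest probe set, and both were higher at every step as deposited. Dimmer H2-K1 probe sets read 67.2, 313.5, 90.8 and 54.7 and 114, 76.9, 208 and 60.6, and both were lowest at 6 h. H2-D1, another heavy chain gene, read 503, 373, 539 and 468 and 548, 400, 531 and 376 on its brighter probe sets, and neither rose at every step. Pdia3, a chaperone of class I loading, read 449.5, 469, 219 and 169.5, with 1 and 2 h above 4 and 6 h (2.77-fold). Tapbp, which bridges class I to the peptide transporter, read 254, 233, 539.5 and 282 on its brightest probe set, while 2 more probe sets read 264, 298, 142 and 281 and 301, 150.4, 219 and 139.9 and were not highest at 4 h. Irf1, an interferon-induced activator, read 182, 194, 164 and 274, and the peptide transporter gene Tap1 176, 166, 198 and 179.

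The 4 assembly chaperones of the 20S alpha ring act in pairs. Psmg1 and Psmg2 form one pair, and their values were 418, 549, 237 and 555 for Psmg1 and 133, 203, 173 and 219 for Psmg2. Psmg1 was low at 4 h and spanned 2.34-fold; over the other 3 samples the span was 1.33-fold. Psmg2 did not share the depth of that dip. In the other pair, Psmg4 read 589.9, 772, 794 and 606 and Psmg3 573, 668, 754 and 533 on its brighter probe set, both higher at 2 and 4 h than at 1 and 6 h; their highest sample was at 4 h as deposited and at 2 h after array median scaling. A second Psmg3 probe set read 172, 126, 381 and 221 and was also highest at 4 h.

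At the head of the ubiquitin relay, the genes for the E1 of NEDD8 and the E1 of ISG15, both modifiers related to ubiquitin, were tested. Uba3, of the NEDD8 E1, read 459.5, 505, 482 and 590.4 and spanned 1.28-fold. Uba7, of the interferon-induced ISG15 E1, read 208, 236, 425 and 335, with 4 and 6 h above 1 and 2 h and a span of 2.04-fold, or 1.61-fold without the 4 h sample. With 1.78-fold after array median scaling and 1.9-fold after quantile normalization or 1.91-fold with a constant of 32 added to every value, Uba7 left the wide group. The next enzymes of the ISG15 relay lay under the filter: the E2 gene Ube2l6 read 55, 191, 183 and 112 and the ISG15 protease gene Usp18 14.8, 33, 54.8 and 21.9. Isg15 itself read 220, 192, 57.8 and 45.2. Uba7, Ube2l6, Usp18 and Isg15 had no common high sample.

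The E2 enzymes carry activated ubiquitin and set which chains are built. Of 21 E2 genes 16 passed the filter, 3 spanned over 2-fold, beside 15% of all tested genes. As deposited 8 of the 16 were lowest at 4 h, beside 29.2% of all tested genes, and 12 were after array median scaling and 9 after quantile normalization. The count of 12 again includes the shift of all tested genes at 4 h in that scaling, to a median of −0.17 log2. Ube2d2a belongs to the UBE2D family, E2 enzymes that work with many ligases. It read 1384, 1147, 656 and 1292, a 2.11-fold span that narrowed to 1.21-fold without the 4 h sample. A second Ube2d2a probe set was lowest at 4 h too, at 221, 199, 150.1 and 279.9. Ube2d3, of the same family, read 1755, 1905, 1248 and 1879 and, on a second probe set, 824, 806, 557 and 591, again lowest at 4 h on both. Each of these 4 probe sets was also lowest at 4 h after array median scaling and after quantile normalization. The second probe set of either gene has an identifier ending in _f_at. By the maker's convention such a set can pick up several related sequences, so the sets may not read the 2 genes apart.

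Ube2k, an E2 that builds the lysine-48 chains read by the proteasome, had a dip at 4 h on one probe set alone. The brighter set read 1024, 974, 569 and 1195, a 2.1-fold span that was 1.23-fold without the 4 h sample, and the other read 423, 391, 512 and 425, highest at 4 h. The mean of both probe sets spanned 1.32-fold. Lysine-63 chains, which serve signalling rather than degradation, are built by Ube2n with an inactive partner, Ube2v1 or Ube2v2. Ube2n read 1771, 1714, 1392 and 1547. Ube2v1 read 3255, 2965, 2551 and 3158. Ube2v2 read 218, 239, 119 and 160.4. All 3 were lowest at 4 h in the deposited values and in both other scalings, Ube2v2 by the widest margin, with a span of 2.01-fold over all samples, or 1.49-fold without that one and 1.8-fold with a constant of 32 added. A dimmer Ube2v2 probe set read 89.7, 56, 84.2 and 32.8, lowest at 6 h.

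Several other E2 genes varied less. Ube2r2, which extends chains on cullin ligase substrates, read 3922, 3522, 3314 and 3619 and had the lowest SD of the class, with a mean of 3594 ± 253 (SD, n = 4). Ube2b, a RAD6 homologue, read 2506, 2388, 2514 and 2828, and its relative Ube2a 753, 659.9, 682 and 637. Ube2h was lowest at 2 h on both of its probe sets, with 620.3, 472, 661 and 702 and 260.5, 143, 318 and 380.3. Ube2o, a hybrid of E2 and E3, read 1929, 1508, 1569.5 and 1546, with 1 h above a tight group of the other 3, while a second probe set that passed the filter read 1440.2, 1050.4, 999 and 1592 and was highest at 6 h. Ube2z read 623, 859, 824 and 831, with 1 h below the other 3, and 93.5, 168, 259 and 259 on a second probe set, also lowest at 1 h. Ube2g1 read 1754, 1558, 1479.7 and 1598, Ube2s, which extends chains for the anaphase-promoting complex, 329.7, 357, 347 and 264, and Ube2e3, the dimmest tested E2, 154, 138, 259.8 and 157 (1.88-fold).

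The E3 and E4 members were Ube3a and Ube4b. Ube3a, the ligase imprinted in neurons and lost in Angelman syndrome, read 406, 287, 246 and 345, a mean of 321 ± 69.9 (SD, n = 4); it was highest at 1 h and lowest at 4 h with a span of 1.65-fold. Ube4b, which lengthens existing chains, read 746, 794, 601 and 692 and was also lowest at 4 h. In a list of 54 other ligase and adaptor genes with a probe set, 47 were tested, 0 passed the trend test, 21 had positive and 26 negative slopes, and 5 spanned over 2-fold (10.6%, beside 15% of all tested genes). The widest were the ligase genes Trim3, at 197, 219.6, 507 and 206, and Cbl, at 146, 102, 251 and 232, each highest at 4 h. At that hour 17 of the 47 were lowest and 17 highest, beside 29.2% and 31.4% of all tested genes.

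Deubiquitinases of the UCH and USP families made up 22 of the tested members. Uchl1, one of the most abundant proteins of neurons, read 4591, 3872, 4507 and 4604, with 3 samples close together and the 2 h sample below them, a span of 1.19-fold and a mean of 4394 ± 350.2 (SD, n = 4). Uchl5, Usp14 and Psmd14 encode the deubiquitinases that work on the proteasome itself. Uchl5 read 347, 317, 218 and 362 and Usp14 684, 554, 449 and 675. Like Psmd14, both were lowest at 4 h, and a dimmer Usp14 probe set, under the filter, read 120, 54.2, 178 and 110.2 and was highest there.

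Usp15 was the widest member. It encodes a protease that acts on TGF-beta receptors and other targets. It read 183, 436, 395 and 119.8, with 2 and 4 h above 1 and 6 h, a span of 3.64-fold and an SD of 0.90 in log2 units. A second probe set followed the same order at every hour over a narrower range, 232, 326, 275 and 173, and the mean of both spanned 2.62-fold. Without the 6 h sample the span of the first was 2.38-fold. Usp4, a close paralogue of Usp15, had another course, 1260.5, 1252, 1095 and 966, lower at every step as deposited but in neither other scaling. A dim Usp4 probe set read 61.4, 5.1, 40.2 and 6.3 and did not share it. The share of all tested genes over 2-fold in the dimmest class, where Usp15 lies, was 37%.

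Usp22, the protease of the SAGA transcription complex, read 295, 133, 209 and 254, lowest at 2 h (2.21-fold, or 1.41-fold without the 2 h sample, and 1.98-fold with a constant of 32 added to all values). Usp39, a splicing factor with a USP fold and no known protease activity, read 216, 322, 144 and 221, highest at 2 h and lowest at 4 h (2.23-fold, or 1.49-fold without the 4 h sample and 1.53-fold without the 2 h sample). A dim second Usp39 probe set read 86, 41.8, 23 and 57.9, also lowest at 4 h but highest at 1 h. Usp8, which sorts receptors at endosomes, read 605, 517, 501 and 393 and was lower at every step, with limma's slope not called. Usp33 read 865, 604, 540.1 and 1030.4, with 1 and 6 h above 2 and 4 h.

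Usp2, whose RNA is known to cycle in clock tissues, was the most even USP gene on its brighter probe set, at 2649, 2356, 2264 and 2351, with a mean of 2405 ± 168 (SD, n = 4). A second Usp2 probe set read 2722, 1645, 1879 and 2417 and was likewise highest at 1 h but lowest at 2 h. Usp7, the protease of the p53 and MDM2 pathway, read 1777, 1177, 1319 and 1329, and Usp9x, a large protease of the developing and adult brain, 2356, 2226, 1718 and 2232. A second Usp9x probe set that passed the filter read 288, 270.2, 314 and 234, highest at 4 h and lowest at 6 h. Usp34 read 1686, 2395, 2024 and 2003, highest at 2 h, as was a second probe set at 378, 645, 324 and 336. Of the 20 tested USP genes 8 were lowest at 4 h and 5 highest there, beside 29.2% and 31.4% of all tested genes, and 3 spanned over 2-fold, beside 15%. The others were Usp1, Usp3, Usp5, Usp10, Usp19, Usp21, Usp25, Usp38 and Usp48, with spans from 1.23 to 1.7-fold.

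**Figure D4:**
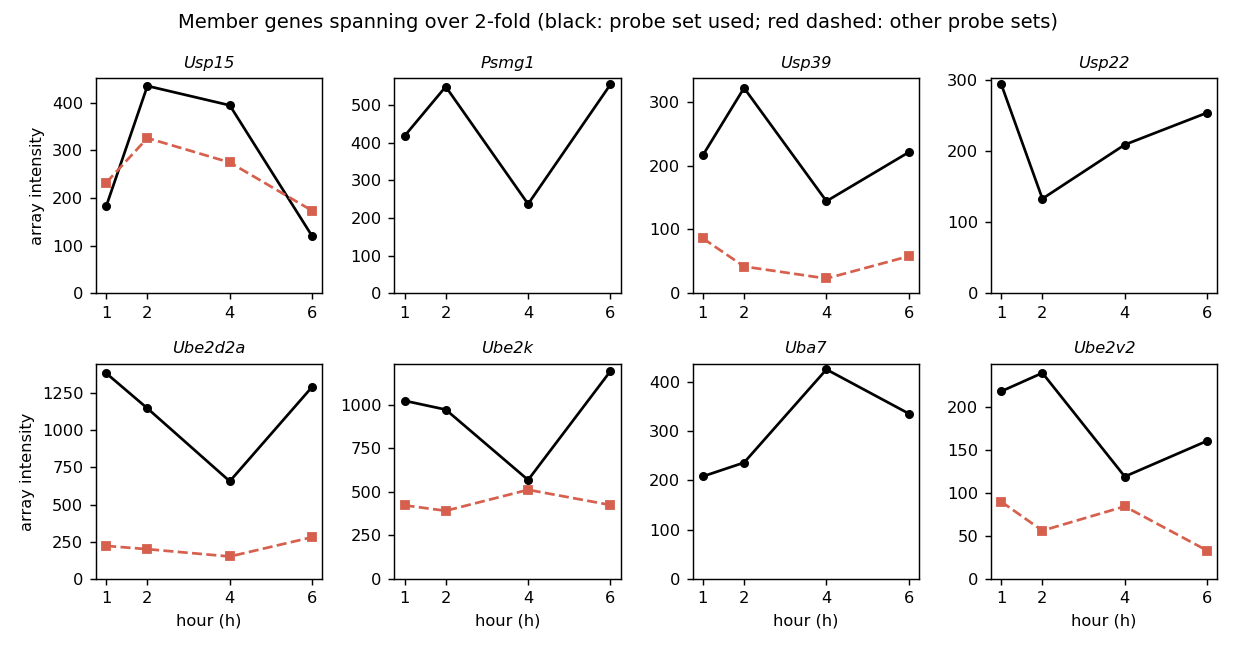
Array intensity (linear scale, y axes from 0) against hour of extraction in h for the 8 member genes that spanned over 2-fold; black lines are the probe set used for the gene and red dashed lines its other probe sets. Usp15 shows the same order of samples on both probe sets, Ube2d2a the same low point at 4 h, and Ube2k opposite changes at 4 h.

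A few symbols met the rule without naming proteasome subunits or ubiquitin enzymes. Ubap2 and Ubap2l encode RNA-binding proteins of stress granules. Ubap2 read 766, 1024, 1058 and 1091, lowest at 1 h, and Ubap2l 559, 668, 508 and 705, lowest at 4 h, as was a second Ubap2l probe set at 395, 324, 304 and 529, while a dim one read 74.8, 65.2, 106 and 69.7. Ubac1, a subunit of a ubiquitin ligase, read 438, 758, 791 and 675, with 1 h below the rest (1.81-fold). Ubap1, of the ESCRT sorting machinery, read 1016, 1069.6, 733 and 815. Psme3ip1, a partner of the nuclear activator Psme3, read 696, 918, 521 and 767; both it and Psme3 were lowest at 4 h.

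Of the 20 member genes under the filter, 4 had Psm symbols beside Psmb8 and Psmb9. The ATPase gene Psmc4 read 120.5, 71.7, 195 and 86.9, the base scaffold gene Psmd2 52.4, 89.9, 209.9 and 92.4 and the chaperone gene Psmd10 41.4, 47, 180 and 193, and Psmc3ip, named for an ATPase but active in meiotic recombination, 28.2, 22, 26.8 and 12.4. Psmc4 and Psmd2 encode constant parts of the 19S particle, and a dim reading of their probe sets does not show that their RNA was low. Psmc4 and Psmd2 were highest at 4 h, the hour at which dim genes leaned high. The E2 genes under the filter were Ube2c, Ube2f, Ube2l6, Ube2t and Ube2w. Ube2f, the second NEDD8 E2, read 58.1, 112, 36.1 and 299, with 6 h far above the rest and 4 h under the floor. Ube2t, of DNA crosslink repair, lay under the floor in all 4 samples (7.9, 8.6, 7.1 and 17.2), and Ube2c, the E2 of mitotic exit, read 162, 174, 115 and 167. The remaining genes under the filter were Uba1y, Ubac2, Usp12, Usp17la, Usp17lc, Usp18, Usp24, Usp29 and Usp42. Ubac2 read 132, 100.2, 45.4 and 27.6 and Usp29 68.8, 40.4, 16.8 and 12.6, both dimmer at each successive hour as deposited, with at least 1 value of each under the floor. The main E1 gene Uba1 was not analysed here.

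Probe sets of the same gene often had different high and low samples. Of 28 member genes with over 1 probe set, 16 had at least 2 above the filter. The hour of the highest value was the same on all such probe sets in 6 of the 16 genes (37.5%) and that of the lowest in 8 (50%), beside 30.2% and 31.2% of 689 genes over the whole array. Highest and lowest hour both matched for Usp15, Ube2h and Ubap2l. Psmb5 shows the disagreement: its brighter set was highest at 1 h, and another read 309, 369, 599 and 420, lowest at 1 h and highest at 4 h. The Psmb1 sets read 5084, 5132, 4870 and 5531 and 1541, 1389.6, 1093 and 1205, highest at 6 h and at 1 h, and shared a low at 4 h; another lay under the floor throughout (30.1, 14.8, 23.9 and 30.9). The 3 Psmd11 sets read 2144, 1917, 1762 and 2055, then 571, 380.3, 329 and 440.5, then 337, 445, 269 and 289, all lowest at 4 h. For 6 tested genes, namely Psma3, Psmb4, Psmb7, Psmc3, Psmd12 and Ube2e1, the identifier of the probe set used ends in _f_at. By the maker's convention such a set can pick up several related sequences, so these readings may include copies of the gene.

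Factors that work beside the members were taken from lists of pathway genes. The COP9 signalosome, a relative of the 19S lid that removes NEDD8 from cullins, had all 9 genes tested. Their median SD was 0.12 in log2 units, and 0 spanned over 2-fold, beside 15% of all tested genes and 2.83% of the brightest class. Its widest were Cops7b, at 444, 591, 479.6 and 739.7, and Cops4, at 504, 805, 608 and 737, both lowest at 1 h. Among 14 tested shuttle factors, segregase parts and aggregate receptors 0 spanned over 2-fold, beside the same 15% of all tested genes. The widest beside Pomp was Ufd1, a cofactor of the unfolding ATPase VCP, at 699, 367, 703 and 638, lowest at 2 h. Among 19 tested ubiquitin-like modifier genes, 1 spanned over 2-fold, again beside 15% of all tested genes. It was Pias1, a SUMO ligase, at 520.4, 416, 251 and 524, lowest at 4 h. The SUMO protease gene Senp3 followed at 1092, 1824, 1689.8 and 923, with 2 and 4 h above 1 and 6 h.

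Of 3 other tested deubiquitinase genes, Josd2 read 297, 302, 405 and 185 and Otub1 964, 633, 601 and 553, the latter highest at 1 h, while a dimmer Otub1 probe set read 210.3, 218, 194 and 350.1 and was highest at 6 h. Among 13 tested transcription factors known to act on proteasome genes, 1 spanned over 2-fold, beside 15% of all tested genes. It was Nfya, a subunit of the CCAAT-binding factor, at 341, 256, 468 and 226. The proteasome activator gene Nfe2l1 read 2084, 1929.8, 2603 and 1706, highest at 4 h, and Nfe2l2 read 312, 318, 352 and 512. In each of these lists 0 genes passed the trend test in either direction.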

How the data were processed

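The values deposited by the authors are linear array intensities, 1 for each probe set on each array. How they were made is not stated in the labels, and the scaling was read from the values: the trimmed mean was 500.3 on all 4 arrays. Genes were named by the platform annotation; 66 control, 1193 unnamed and 396 several-symbol probe sets were left out, and all 141 member probe sets matched RefSeq (GRCm38.p6) by gene ID. Intensities under the 20th percentile (38.3) were set to it, log2 was taken, and genes with a mean at or above the 40th percentile of gene means were tested. The slope on hour was fitted over all 4951 genes with limma 3.58.1 in R 4.3.3 (eBayes with intensity trend; 2 residual and 10.4 prior degrees of freedom; Benjamini-Hochberg at 0.05) and tested on simulated data. The labels do not say that samples came from separate animals, so p-values measure only the spread between these samples, and the number of arrays limits precision. The members and lists were chosen with earlier results of these data known. Named with values are members spanning over 2-fold or moving one way at every step, the least and most variable gene of each class, the UCH and inducible proteasome genes, Ube3a, their other probe sets and the 2 widest genes of each list; other named genes were chosen after their values were seen. Alternatives changed the scaling (array median, quantile), floor, filter, the use of probe sets, or left out a sample.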

Additional observations from a re-analysis of the deposited data

Results flagged for a closer look

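Among the 86 tested members, 4 had a sample set apart from the other 3, with a gap to the nearest sample that passed Dixon's critical value when divided by the gene's whole log2 range. Chance alone gives about 1 in 20 such genes, or about the number seen. For Uchl1, the neuronal ubiquitin hydrolase, the 2 h sample lay below the others and the gap was 0.877 of the range. The low 1 h sample of the E2 gene Ube2z had a gap of 0.869. Psmd1, the scaffold of the 19S base, had a high 6 h sample with a gap of 0.862, and the E2 and E3 hybrid Ube2o a high 1 h sample with a gap of 0.837. All 4 genes spanned under 1.5-fold, and the 4 h sample was the one apart in 0 of them.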

How the results depend on the processing

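The count of members called for a slope with the hour was 0 under all 11 alternatives, although 13 genes of the whole table were called without the 1 h sample and 3 without the 6 h sample. The count over 2-fold was 8, and 5 with a constant of 32 added in place of the floor, 15 with the filter at the 20th percentile of gene means and 19 without a filter, where more dim genes are counted; leaving out 1 sample gave 2 to 7, with 2 without the 4 h sample. Without the 4 h sample the counts at that hour have no value. The members lowest at 4 h numbered 55 and those highest at 4 h 8 after array median scaling. Leaving out another sample gave 41 to 43 and 19 to 23, since fewer samples then compete. These counts and those over 2-fold are given here for members alone. They do not show whether members moved apart from all tested genes under the same alternative. The median SD of the members ran from 0.18 to 0.23 when a sample was left out. No paired analysis was possible because the samples form 1 group with 1 sample per hour. Of 152 spans of named members recomputed under alternatives, 146 stayed within 1.5 times. Without replicates at an hour, differences between single samples cannot be separated from array error.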
